A study of Mus musculus with 12 samples.

Results

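The mitochondrial carriers of the SLC25 family and the uncoupling proteins were described across 12 mouse liver RNA-seq libraries. Members were the protein-coding genes whose symbol is Slc25a followed by a number, or Ucp1, Ucp2 or Ucp3, with Slc25a15 and Slc25a20 left out by the rule. The symbols of 51 genes matched. Slc25a15 and Slc25a20 and the pseudogenes Slc25a2 and Slc25a5-ps were then set aside, and 47 genes of the 56065 listed (21382 with a protein-coding transcript) were members. The rule reads symbols and no measured value.

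Libraries came from snap-frozen liver of AhR-floxed mice, labelled male, in 3 groups of 4. The MD+CA group ate a steatohepatitis-inducing diet (cholesterol at 2%, fructose at 20 kcal% and fat at 40 kcal%) and was injected with cinnabarinic acid, a tryptophan metabolite that binds the aryl hydrocarbon receptor (AhR), at 12 mg/kg in 0.2% DMSO. The MD group ate the same diet and was injected with the 0.2% DMSO vehicle. Injections were intraperitoneal, 3 times a week. The CD group ate a control diet with fat at 10 kcal%. Whether CD mice were injected is not in the labels, and a difference between MD and CD can come from either diet or injection. Feeding started at an age of 8 weeks and went on for 20 weeks, and mice of all groups carried the floxed AhR alleles, with no Cre driver named. The series states a protective effect of cinnabarinic acid on the liver as its subject. Nothing in the labels says outright that the 4 libraries of a group came from 4 mice, so p-values measure the spread between these libraries, which may be partly technical.

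SLC25 carriers are small proteins of the mitochondrial inner membrane that exchange metabolites, nucleotides, cofactors and ions between the cytosol and the matrix. Uncoupling proteins belong to the same family: Ucp1 lets protons leak back into the matrix of brown fat cells and so turns fuel into heat, whereas Ucp2 and Ucp3 are linked to control of substrate use and of reactive oxygen species. In hepatocytes the carriers feed oxidative phosphorylation, export citrate for lipid synthesis, and serve the urea cycle, the malate-aspartate shuttle and heme synthesis. Ucp2 in the liver is also made by Kupffer cells, the resident macrophages.

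Libraries held between 9089586 and 14492587 gene-assigned reads, and the members together took between 0.125 and 0.261% of them. A count of 3 reads, taken as the limit behind a listed 0, was worth between 0.207 and 0.33 CPM (counts scaled to library size) without TMM factors. This limit covers counting error only. All other CPM values include TMM factors, and on that scale 3 reads of Ucp1 in MD+CA 3 were 0.380 CPM. Hepatocyte markers summed to between 41910 and 78410 CPM, so all libraries carried the labelled tissue. The label male goes against the data: Xist, which is transcribed from the inactive X chromosome of females, stood between 619 and 947 CPM in all 12 libraries, and the Y-linked Ddx3y, Kdm5d, Uty and Eif2s3y had 0 reads in every library. Mitochondrially encoded transcripts took 6.29 ± 1.38% of reads in MD+CA, 10.9 ± 4.78% in MD and 6.21 ± 0.395% in CD (SD, n = 4 each). MD 2 stood apart with 17.5%, and it had the lowest mean correlation with its own group (0.927). MD+CA 2 also stood apart, with skeletal muscle markers at 896 CPM.

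A few carriers made up most of the family. On the length-corrected TPM scale, the leading member held 16.8% of the family's summed level, the leading 3 held 45.7%, the leading 10 held 78.7% and the leading 20 held 93.1%. Slc25a47, a liver-enriched carrier, averaged 250.8 TPM over all libraries, and its libraries ran between 99.6 and 478 TPM. Slc25a5, the main ADP/ATP exchanger of many tissues, averaged 238 TPM. Slc25a39, which brings glutathione into the matrix, averaged 193 TPM, and the phosphate carrier Slc25a3 averaged 157 TPM. The ranges of these 4 carriers over the 12 libraries overlapped. The citrate carrier Slc25a1 came next at 87.3 TPM, and Ucp2 took rank 17 at 18.2 TPM. The filter on low counts removed 8 members, which were not tested: Ucp1, Ucp3, Slc25a18, Slc25a31, Slc25a35, Slc25a41, Slc25a43 and Slc25a54. Slc25a41 and Slc25a54 had 0 reads in all 12 libraries, and the other 6 averaged at most 0.393 TPM.

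**Figure D1:**
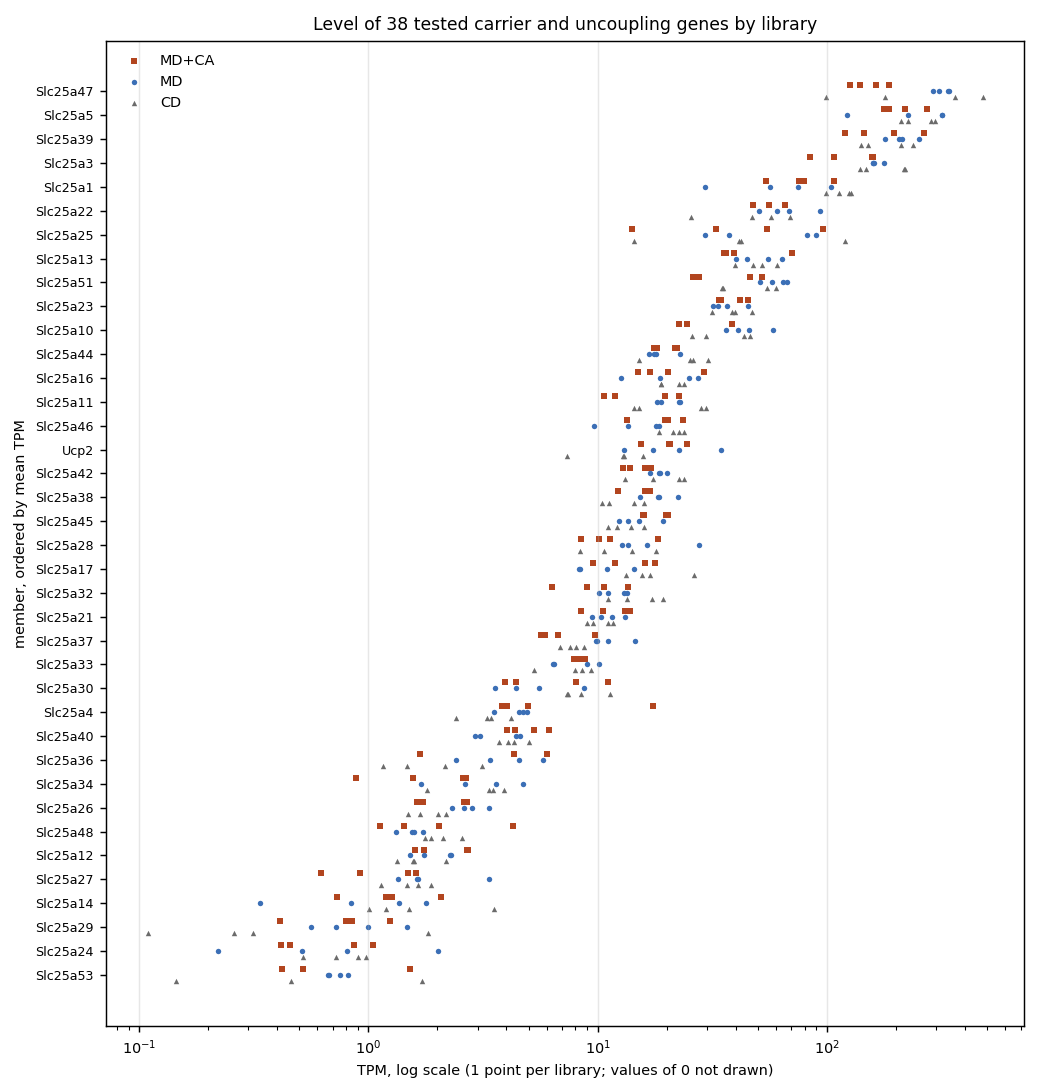
Level of 38 of the tested members in every library, in TPM on a log axis, with members ordered by their mean from the highest at the top. Squares are MD+CA libraries, circles MD and triangles CD. The leading member, Slc25a47, averaged 250.8 TPM and the lowest, Slc25a53, 0.642 TPM.

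In the diet and vehicle group against the control diet (MD vs CD), Ucp2 was the 1 member that passed the test, and it rose. The test was edgeR's quasi-likelihood test with Benjamini-Hochberg adjustment over 13631 genes and a threshold of 0.05. Over all genes 0.088% passed it, or 12 genes, 0.044% as higher and 0.044% as lower. At an unadjusted p under 0.05, 10 of the 39 tested members were reached (25.6%), 9 of them higher and 1 lower, against 19.9% of all genes. The higher ones were 23.1% of the members and 10.5% of all genes, and the lower one 2.56% of the members and 9.4% of all genes. Log2 fold changes were above 0 for 30 of 39 members (76.9%) and for 53.7% of all genes, with medians of 0.17 for the members and 0.04 for all genes. The median of the members was 0.12 without CD 2, 0.29 without MD 2 and 0.30 without CD 4. In 8 members the MD libraries all lay above the CD libraries, or 20.5%, against 5.99% of all genes. Slc25a53 is 1 of the 8, and also 1 of the 9 higher at an unadjusted p under 0.05 and of the 30 above 0. It passed the filter on low counts only through the MD libraries, so its place in these counts is partly set by the filter. In 0 members they all lay below, against 7.12%, and both directions together made 13.1% of all genes.

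Cinnabarinic acid on that diet (MD+CA vs MD) went with a fall in Slc25a37, again the 1 member that passed the test, while 2.71% of all genes passed, 1.64% as lower and 1.06% as higher. At an unadjusted p under 0.05, 10 of 39 members were lower (25.6%), against 11.6% of all genes, and 0 were higher, against 11.6% of all genes (23.2% in both directions). Log2 fold changes were below 0 in 28 of 39 members, Slc25a53 among them, and above 0 in 11 (28.2%, against 49.7% of all genes). The median of the members was -0.39, against 0.00 for all genes. In 6 members, Slc25a53 again among them, the MD+CA libraries all lay below the MD libraries (15.4%, against 5.21% of all genes), and in 0 they all lay above (4.99%, or 10.2% for both directions). This comparison and MD vs CD share the 4 MD libraries, and MD+CA vs CD shares libraries with both.

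In MD+CA vs CD, 0 members passed edgeR's test, while 0.528% of all genes did, 0.22% as higher and 0.308% as lower. The count at an unadjusted p under 0.05 was 7 of 39 (17.9%, against 10.5% of all genes), 4 higher (against 6.16% of all genes) and 3 lower (against 4.37%), and DESeq2 called 2, Ucp2 and Slc25a32, where it called 1.98% of all genes. Log2 fold changes were above 0 in 16 members (41.0%, against 52.0% of all genes), and the median was -0.13, against 0.02 for all genes. It was -0.04 without CD 4 and -0.20 without CD 2. Groups did not overlap in 7 members (17.9%, against 6.4%), 5 higher in MD+CA (against 3.48% of all genes) and 2 lower (against 2.92%).

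**Figure D2:**
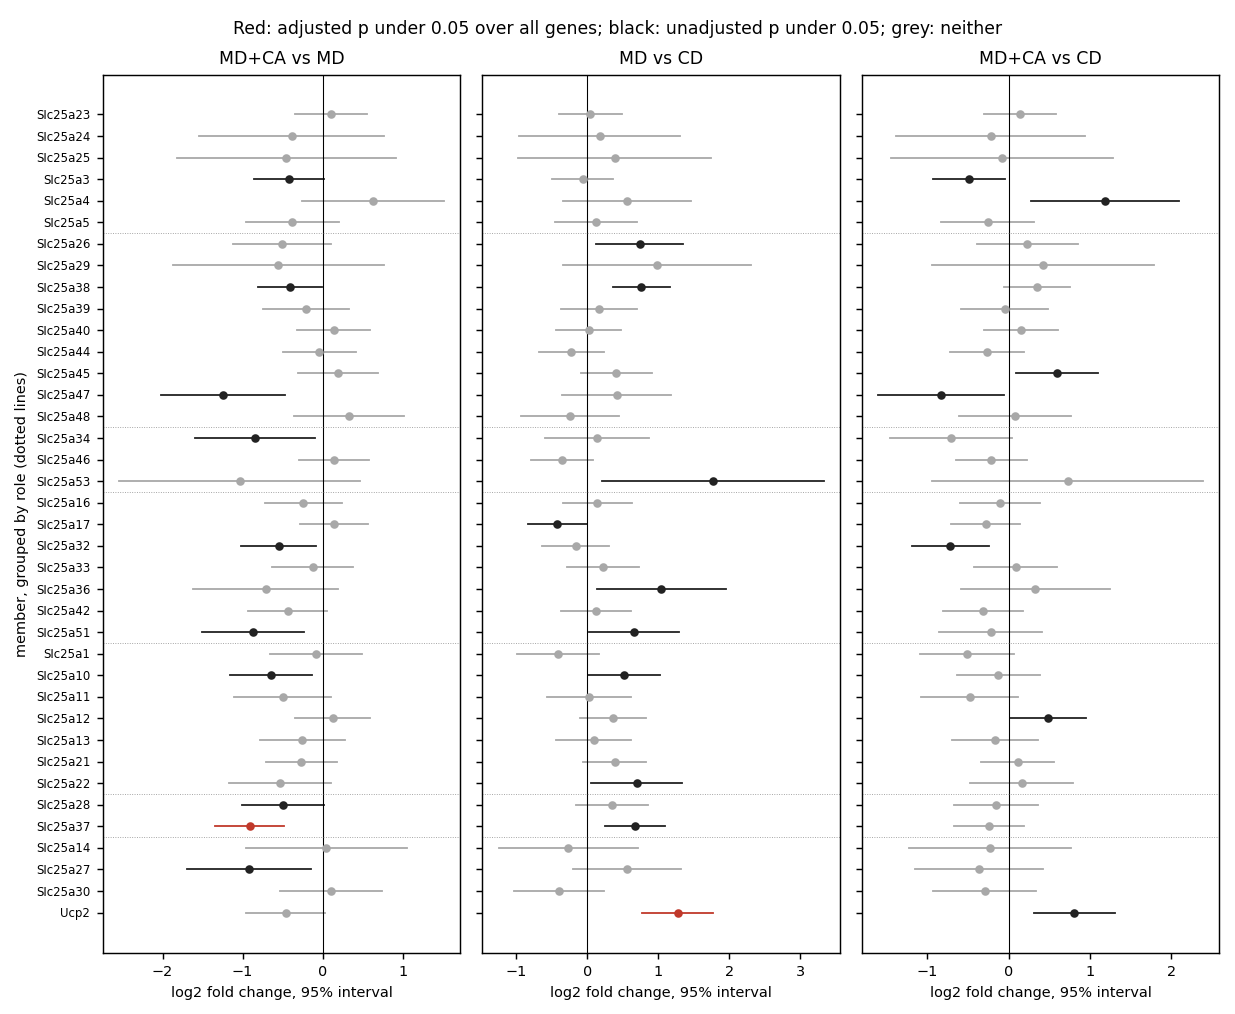
Log2 fold change of 38 of the tested members with 95% intervals (x axis) in MD+CA vs MD, MD vs CD and MD+CA vs CD. The intervals rest on 9 residual degrees of freedom and are wider than the test implies, so some black intervals cross 0. Members run down the page by role, and dotted lines part the roles. Red marks an adjusted p under 0.05 over all genes, which Slc25a37 reached in MD+CA vs MD and Ucp2 in MD vs CD, and black an unadjusted p under 0.05. Slc25a53 is drawn, but it passed the filter on low counts only through MD, and no fold is read from it.

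Among the uncoupling proteins only Ucp2 passed the filter on low counts. Its level was 33.7, 27.2, 34.7 and 32.5 CPM in the 4 MD+CA libraries, 46.4, 41.0, 28.8 and 60.2 CPM in MD, and 19.5, 13.98, 17.7 and 21.8 CPM in CD. In CPM every library on the steatohepatitis diet, treated or not, was above every CD library, and MD and MD+CA overlapped. In TPM, MD 2 (13.0) and MD+CA 3 (15.4) lay below CD 4 (15.7). Ucp2 thus rose in MD vs CD, 2.41 fold or 1.27 as log2 (SE 0.22, adjusted p = 0.0486). In MD+CA vs CD the difference was 0.81 (SE 0.22, adjusted p = 0.121), and in MD+CA vs MD it was -0.46 (SE 0.22, 95% interval -0.96 to 0.03, adjusted p = 0.219), or -0.27 without MD 4. The adjusted p in MD vs CD lay close to the threshold: leaving out any 1 library other than MD 3 ended the call, with adjusted p between 0.0511 and 0.269 and differences between 1.08 and 1.37. Without MD 3, the lowest MD library, it was 1.42 (adjusted p = 0.0299), and with an offset for transcript length it was 0.99 (adjusted p = 0.133).

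Markers of Kupffer cells, a further source of Ucp2 in liver, were read beside it. Resident Kupffer cell markers (12 genes) summed to between 422 and 822 CPM in MD+CA, between 199 and 337 CPM in MD and between 252 and 314 CPM in CD. Of the 12 markers, 5 passed the test as higher in MD+CA vs MD, against 1.06% of all genes, and the median log2 fold change of the 12 was 1.03. In MD vs CD 0 of 12 passed (against 0.088% of all genes), 9 of 12 were above 0 (against 53.7%) and the median was 0.15. Markers of recruited or lipid-associated macrophages (12 genes) summed to between 128 and 481 CPM in MD+CA, 173 and 329 CPM in MD, and 533 and 1161 CPM in CD. Of these, 8 were tested. In MD vs CD 0 of 8 passed, 6 were above 0 and the median was 0.43, so the sum and the median went opposite ways. The part of either cell type in the Ucp2 level was not tested. With mitochondrially encoded genes left out of the fit, Ucp2 in MD vs CD was at 1.26 (adjusted p = 0.0483). In bulk tissue, more cells of a type and more RNA per cell cannot be told apart.

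Ucp1 and Ucp3, the uncoupling proteins of brown fat and of skeletal muscle, were at or near 0. Ucp1 had 0, 0, 0.380 and 1.38 CPM in MD+CA, 0 in all 4 MD libraries, and 0.278 CPM in CD 4 with 0 in the other CD libraries. Ucp3 had 0, 1.55, 0 and 0.259 CPM in MD+CA, 0 in all 4 MD libraries, and 0.0695 CPM in CD 4 with 0 in the other CD libraries. In reads, the highest values were 16 for Ucp1 in MD+CA 4 and 19 for Ucp3 in MD+CA 2. These 2 libraries also led in markers of the tissues in which the genes are known: muscle markers summed to 896 CPM in MD+CA 2, against at most 29.8 CPM in the other MD+CA libraries, 1.53 CPM in MD and 1.11 CPM in CD. Adipocyte markers summed to 27.7 CPM in MD+CA 4, between 3.93 and 6.58 CPM in the other MD+CA libraries, between 9.24 and 24.4 CPM in MD, and between 4.86 and 13.97 CPM in CD. Of the 10 adipocyte markers, Elovl3 was also listed as a male-biased liver gene, so the sum need not come from adipocytes alone. MD 2, with a sum of 24.4 CPM, had 0 reads of Ucp1. The part of other tissue in these levels was not tested.

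**Figure D3:**
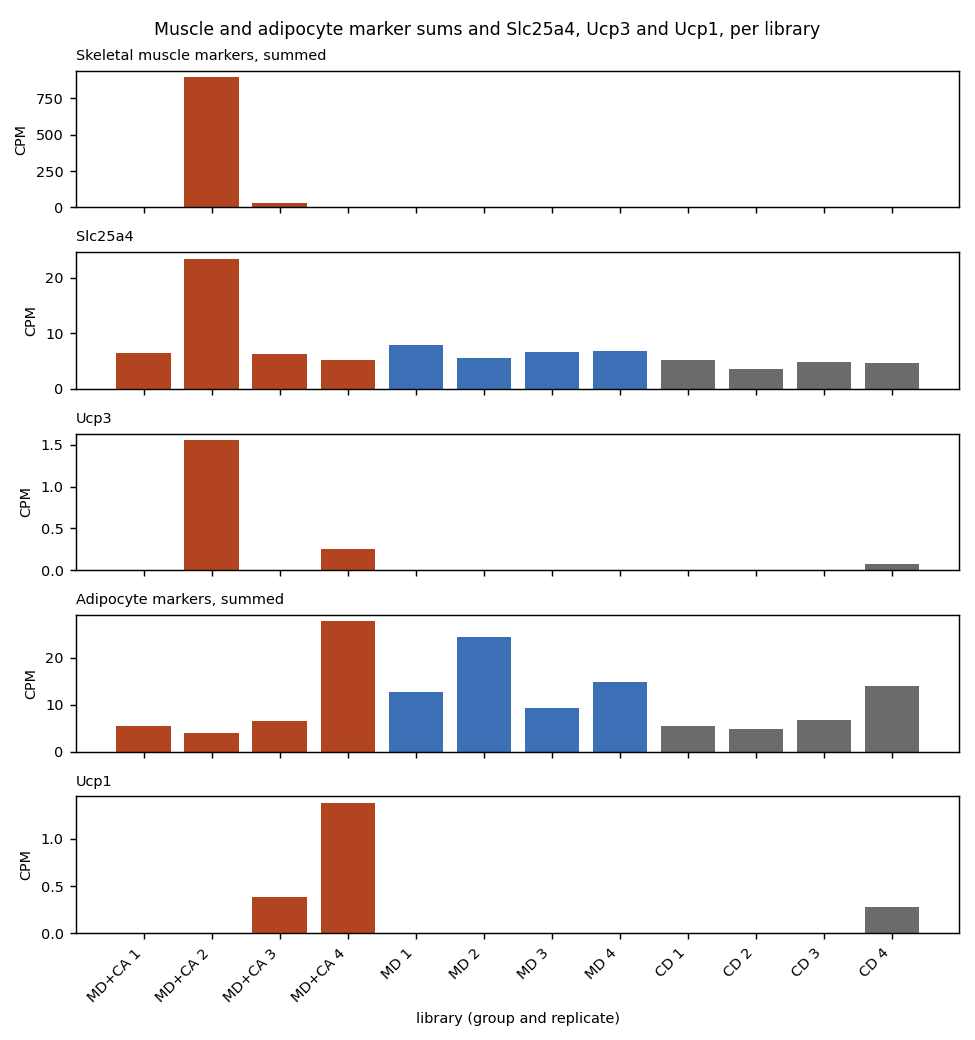
CPM per library (bars, 12 libraries) of summed skeletal muscle markers, Slc25a4, Ucp3, summed adipocyte markers and Ucp1. Red bars are MD+CA, blue MD and grey CD. Muscle markers, Slc25a4 and Ucp3 peak in MD+CA 2 (896, 23.4 and 1.55 CPM), and Ucp1 and adipocyte markers in MD+CA 4 (1.38 and 27.7 CPM).

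Promoter sequences of the 3 uncoupling proteins are shown because their levels differ so widely in liver, and that of Slc25a47 because it led the family. Each spans the 250 bases before the annotated start and the first 50 after it, from RefSeq on GRCm38.p6, all on the plus strand. The windows are chr8:83290098-83290397 for Ucp1, chr7:100493108-100493407 for Ucp2, chr7:100472741-100473040 for Ucp3 and chr12:108850879-108851178 for Slc25a47. Capitals mark the GC box (GGGCGG) and the nuclear receptor motif (AGGTCA) on either strand.
Ucp1: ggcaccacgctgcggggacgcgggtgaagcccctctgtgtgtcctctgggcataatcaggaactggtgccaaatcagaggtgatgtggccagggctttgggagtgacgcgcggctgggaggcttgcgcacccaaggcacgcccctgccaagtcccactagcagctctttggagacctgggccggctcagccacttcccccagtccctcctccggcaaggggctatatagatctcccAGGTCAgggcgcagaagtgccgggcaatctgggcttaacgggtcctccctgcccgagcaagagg
Ucp2: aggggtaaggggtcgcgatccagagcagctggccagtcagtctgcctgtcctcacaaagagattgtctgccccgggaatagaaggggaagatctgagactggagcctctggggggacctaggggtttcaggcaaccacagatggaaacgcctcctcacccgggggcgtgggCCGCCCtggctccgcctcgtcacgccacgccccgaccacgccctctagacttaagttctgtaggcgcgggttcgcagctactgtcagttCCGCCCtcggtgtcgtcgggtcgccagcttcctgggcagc
Ucp3: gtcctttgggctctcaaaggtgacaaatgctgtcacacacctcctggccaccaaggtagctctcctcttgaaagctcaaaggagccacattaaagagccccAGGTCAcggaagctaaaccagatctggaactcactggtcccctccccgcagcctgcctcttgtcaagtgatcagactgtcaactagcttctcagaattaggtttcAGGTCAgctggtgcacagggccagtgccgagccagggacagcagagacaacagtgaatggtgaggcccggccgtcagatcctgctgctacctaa
Slc25a47: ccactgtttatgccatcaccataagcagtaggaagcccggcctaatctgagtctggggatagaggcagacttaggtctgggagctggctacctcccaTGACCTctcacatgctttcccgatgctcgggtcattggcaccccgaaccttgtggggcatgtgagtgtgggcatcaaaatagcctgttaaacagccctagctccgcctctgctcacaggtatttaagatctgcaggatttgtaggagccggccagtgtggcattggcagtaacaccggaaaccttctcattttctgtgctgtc

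The Ucp2 window had 21 CpG pairs and the GC box on the reverse strand, with its leftmost base at -79 and at 11 counted from the start as base 1. The Ucp3 window had 5 CpG pairs and 2 nuclear receptor motifs, at -149 and -44, and Ucp1 had 15 CpG pairs and 1 nuclear receptor motif at -14. Slc25a47 had 7 CpG pairs and 1 nuclear receptor motif on the reverse strand at -153. RefSeq windows were found for 37 members (46 promoters), and their median CpG count was 15, against 7 over all 32851 promoters. The GC box stood in 78.3% of member promoters and in 35.7% of all promoters. The TATA box (TATAAA) was in 4.35% and 13.6%, the E-box (CACGTG) in 15.2% and 7.15%, the nuclear receptor motif in 13.0% and 16.3%, and the cAMP response element (TGACGTCA) in 4.35% and 1.79%. These are letter matches on both strands and not sites of binding.

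The carriers closest to the uncoupling proteins in sequence, Slc25a14, Slc25a27 and Slc25a30, did not pass the test in any comparison. Slc25a27 had 3.67, 1.64, 2.53 and 3.46 CPM in MD+CA, 4.83, 9.06, 3.08 and 4.62 CPM in MD, and 4.46, 3.65, 2.86 and 3.55 CPM in CD. Its MD+CA vs MD difference was -0.92 (SE 0.34, adjusted p = 0.13), or -0.56 without MD 2, and the groups overlapped. Slc25a30 averaged 15.04 ± 6.24 CPM in MD+CA, 14.01 ± 3.76 CPM in MD and 18.5 ± 3.74 CPM in CD (SD, n = 4 each). Slc25a14 averaged 1.04 CPM in MD+CA, 0.987 CPM in MD and 1.21 CPM in CD.

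Iron carriers held the 1 call of MD+CA vs MD. Slc25a37 (mitoferrin 1) and Slc25a28 (mitoferrin 2) bring iron into the matrix for heme and iron-sulfur clusters, and mitoferrin 1 is best known from red cell precursors. Slc25a37 had 16.8, 23.6, 19.4 and 18.5 CPM in MD+CA, 34.5, 48.1, 32.2 and 32.7 CPM in MD, and 19.1, 25.02, 26.0 and 22.3 CPM in CD. The 4 MD libraries lay above all the others, and MD+CA and CD overlapped. In MD+CA vs MD Slc25a37 was lower by a log2 difference of -0.91 (SE 0.19, 95% interval -1.34 to -0.48, adjusted p = 0.0233). The difference in MD vs CD was 0.67 (SE 0.19, adjusted p = 0.117) and in MD+CA vs CD -0.24 (SE 0.19, adjusted p = 0.788). Leaving out MD 1, MD 2, MD+CA 3 or MD+CA 4 ended the call, with adjusted p of 0.0548, 0.0541, 0.0575 and 0.0518, and without MD 2, the highest library, the difference was -0.76. With the transcript length offset it was -0.85 (adjusted p = 0.0686). Slc25a28 averaged 20.6 ± 3.50 CPM in MD+CA, 29.2 ± 8.12 CPM in MD and 22.9 ± 5.37 CPM in CD (SD, n = 4 each), and its MD+CA vs MD difference of -0.50 (SE 0.23) did not pass (adjusted p = 0.204) and was -0.30 without MD 2.

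Erythroid markers (8 genes), relevant to mitoferrin 1, summed to between 47.2 and 211 CPM in MD+CA, between 94.3 and 253 CPM in MD and between 38.1 and 177 CPM in CD, and 0 of 5 tested markers passed in any comparison. The library with the highest erythroid sum had the lowest Slc25a37 of its group in MD+CA (MD+CA 1), the next to highest in MD (MD 1) and the highest in CD (CD 3). The part of erythroid cells in the Slc25a37 level was not tested. MD+CA libraries also differed in clock genes. Of 10 repressor and output genes 8 passed the test as lower in MD+CA vs MD, against 1.64% of all genes. Of 5 activators, 5 were above 0 and 1 passed as higher, against 1.06% of all genes. It was Bmal1, the core activator, higher by 3.31 (SE 0.39, adjusted p = 0.00136). Time of collection is not given in the sources used here, and the part of time of day in the members' levels was not tested. Slc25a37 overlaps annotated genes on both strands, and the strand setting of the quantification is not given. The most abundant of them, Gm31748, was at most 2.85 CPM.

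**Figure D4:**
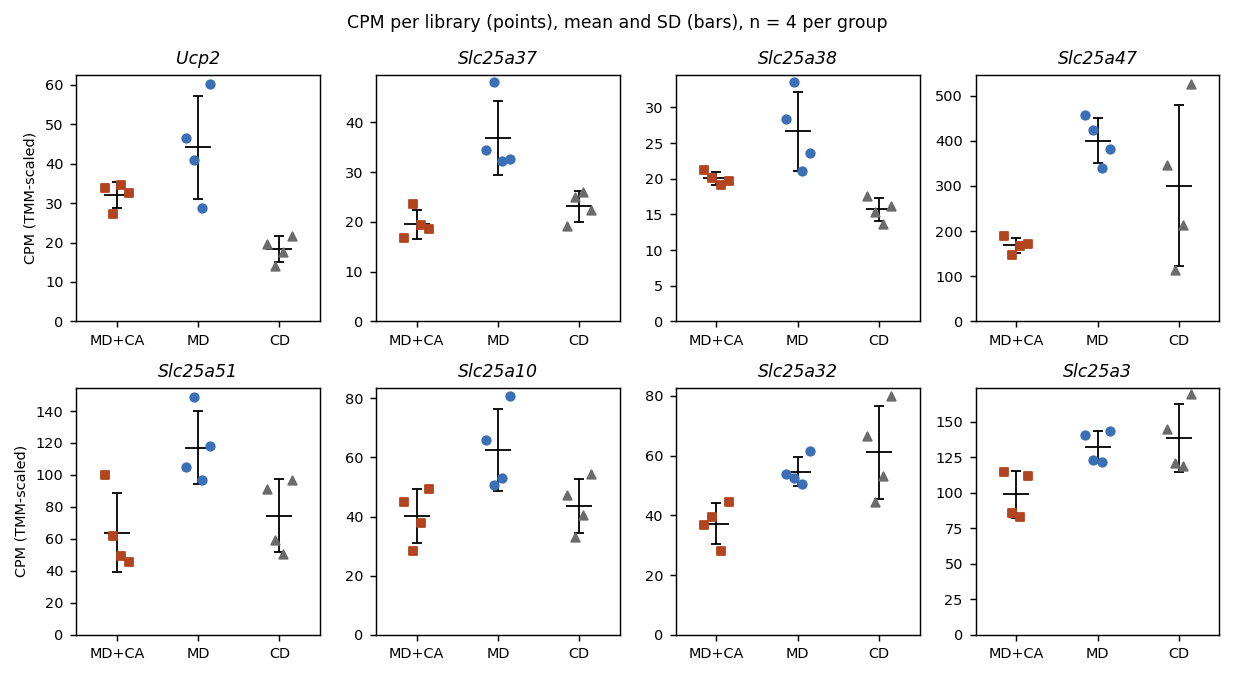
CPM per library (points) of Ucp2, Slc25a37, Slc25a38, Slc25a47, Slc25a51, Slc25a10, Slc25a32 and Slc25a3 in MD+CA (squares), MD (circles) and CD (triangles), with group mean and SD (bars, n = 4 each). For Slc25a37 the MD libraries (32.2 to 48.1 CPM) lie above all others, and for Ucp2 the CD libraries (13.98 to 21.8 CPM) lie below all others.

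Carriers of ADP, ATP and phosphate, which serve oxidative phosphorylation, showed 0 calls among 6 tested of 9. Slc25a3 imports the phosphate used by ATP synthase. It had 115, 85.9, 83.3 and 112 CPM in MD+CA, 140, 122.8, 122 and 144 CPM in MD, and 145, 121, 119 and 170 CPM in CD. In CPM all MD+CA libraries were below all others, while in TPM MD+CA 1 (158.6) lay above CD 3 (140.1). The difference was -0.42 in MD+CA vs MD (SE 0.19, adjusted p = 0.21) and -0.49 in MD+CA vs CD (SE 0.19, adjusted p = 0.346). Slc25a5 averaged 138 ± 16.9 CPM in MD+CA, 180 ± 60.8 CPM in MD and 165 ± 29.9 CPM in CD (SD, n = 4 each). Slc25a25, a calcium-regulated ATP-Mg/phosphate carrier, varied widely within groups, between 33.2 and 237 CPM in MD+CA, 78.3 and 267 CPM in MD, and 36.8 and 300.1 CPM in CD. Slc25a23 of the same kind averaged 103.9 ± 21.5 CPM in MD+CA, 96.8 ± 15.6 CPM in MD and 94.2 ± 5.87 CPM in CD (SD, n = 4 each), and Slc25a24 averaged 1.47 CPM in MD+CA, 1.93 CPM in MD and 1.73 CPM in CD.

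Slc25a4 is the ADP/ATP exchanger of heart and skeletal muscle. It had 6.43, 23.4, 6.20 and 5.19 CPM in MD+CA, 7.85, 5.50, 6.61 and 6.84 CPM in MD, and 5.13, 3.55, 4.83 and 4.66 CPM in CD. MD+CA 2 was far above the rest, and that library also held the muscle markers described above. The MD+CA vs CD difference of 1.18 (SE 0.40, adjusted p = 0.233) was 0.38 (adjusted p = 0.708) without MD+CA 2. The MD+CA vs MD difference of 0.63 (SE 0.39, adjusted p = 0.352) was -0.17 without it. Slc25a4 and Slc25a5 are close paralogs, and the quantification divides reads they share.

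Di- and tricarboxylate, aspartate and glutamate carriers move the intermediates of the citric acid cycle and of the malate-aspartate shuttle, and 0 of 7 tested of 8 passed in any comparison. The dicarboxylate carrier Slc25a10 had 44.9, 28.4, 38.0 and 49.2 CPM in MD+CA, 65.9, 50.8, 53.0 and 80.9 CPM in MD, and 47.1, 33.0, 40.4 and 54.4 CPM in CD. In CPM the MD+CA libraries were all below the MD libraries, with a difference of -0.64 (SE 0.23, adjusted p = 0.115). In TPM, MD+CA 1 (38.7) lay above MD 2 (36.2). The citrate carrier Slc25a1, which supplies citrate for fatty acid and sterol synthesis, averaged 64.6 ± 13.9 CPM in MD+CA, 68.6 ± 22.9 CPM in MD and 91.8 ± 13.7 CPM in CD (SD, n = 4 each). Its difference was -0.42 in MD vs CD (SE 0.26, adjusted p = 0.362; -0.21 without MD 2) and -0.51 in MD+CA vs CD (SE 0.26, adjusted p = 0.539). The glutamate carrier Slc25a22 averaged 95.2 ± 13.8 CPM in MD+CA, 138 ± 38.5 CPM in MD and 85.1 ± 32.7 CPM in CD, and in MD vs CD it differed by 0.69 (SE 0.28, adjusted p = 0.198).

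The liver aspartate-glutamate carrier Slc25a13 averaged 87.0 ± 28.4 CPM in MD+CA, 103.8 ± 19.1 CPM in MD and 97.4 ± 15.8 CPM in CD (SD, n = 4 each). Its paralog of brain and muscle, Slc25a12, was far lower per length (1.94 against 48.8 TPM over all libraries). Slc25a12 averaged 6.57 ± 1.30 CPM in MD+CA, 6.02 ± 0.536 CPM in MD and 4.67 ± 0.492 CPM in CD. In CPM every MD+CA and MD library was above every CD library. In TPM, Slc25a12 in MD 4 (1.53) and MD+CA 1 (1.60) lay below CD 1 (2.18). Its differences from CD did not pass: 0.48 in MD+CA (SE 0.21, adjusted p = 0.399) and 0.36 in MD (SE 0.21, adjusted p = 0.335). The oxoglutarate carrier Slc25a11 averaged 17.5 ± 5.63 CPM in MD+CA, 24.8 ± 4.80 CPM in MD and 24.4 ± 7.53 CPM in CD. Slc25a21, which carries oxoadipate, averaged 12.5 ± 1.79 CPM in MD+CA, 15.1 ± 3.51 CPM in MD and 11.6 ± 1.31 CPM in CD.

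Carriers of amino acids, amines, glutathione and S-adenosylmethionine numbered 9, all tested, and 0 passed. Slc25a47, the most abundant member, was counted in this group, though nothing in these data bears on its substrate. Its log2 fold change of -1.25 was the lowest of all 39 in MD+CA vs MD, without passing the test. It had 189, 148, 168 and 170 CPM in MD+CA, 456, 424, 340 and 381 CPM in MD, and 346, 114, 214 and 526 CPM in CD. The MD+CA libraries lay well below the MD libraries and close together, while the CD libraries spread across both. The MD+CA vs MD difference had an SE of 0.34 (95% interval -2.02 to -0.47, adjusted p = 0.0604), and it passed under 7 of 24 alternatives, with values between -1.31 and -0.99. The MD+CA vs CD difference was -0.83 (SE 0.34, adjusted p = 0.374) and the MD vs CD difference 0.41 (SE 0.34, adjusted p = 0.504). Single CD libraries moved both. Without CD 4 they were -0.41 for MD+CA vs CD and 0.83 for MD vs CD, and without CD 2 the MD vs CD difference was 0.14.

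Slc25a38 imports glycine for the first step of heme synthesis. It had 21.2, 20.1, 19.1 and 19.7 CPM in MD+CA, 28.3, 33.6, 21.0 and 23.6 CPM in MD, and 17.6, 15.4, 13.7 and 16.2 CPM in CD. In CPM every MD+CA and MD library was above every CD library. In TPM, MD 3 (15.3) and MD+CA 3 (12.3) lay below CD 1 (15.9). The MD vs CD difference of Slc25a38 was 0.76 (SE 0.18, adjusted p = 0.104), and it passed with DESeq2 (adjusted p = 0.00876) and with limma voom (adjusted p = 0.038). Slc25a26, the S-adenosylmethionine carrier, had 3.40, 2.13, 2.40 and 3.11 CPM in MD+CA, 4.06, 5.29, 3.08 and 3.34 CPM in MD, and 2.57, 2.03, 2.24 and 2.57 CPM in CD. MD lay above CD, with a difference of 0.73 (SE 0.27, adjusted p = 0.166). Slc25a26 overlaps Lrig1 on the other strand, a gene at between 9.98 and 19.9 CPM, and with the strand setting not given their reads may not be fully told apart. Slc25a45 had 21.5, 24.1, 38.7 and 29.3 CPM in MD+CA, 33.1, 26.3, 20.1 and 20.3 CPM in MD, and 16.1, 17.7, 20.8 and 20.5 CPM in CD. MD+CA lay above CD in CPM (0.59, SE 0.22, adjusted p = 0.3). In TPM, MD+CA 2 (15.84) lay below CD 3 (15.87). The abundant Slc25a39 averaged 150 ± 34.3 CPM in MD+CA, 174 ± 35.1 CPM in MD and 156 ± 35.5 CPM in CD (SD, n = 4 each), and the branched-chain amino acid carrier Slc25a44 averaged 59.9 ± 5.78 CPM in MD+CA, 61.7 ± 10.99 CPM in MD and 72.0 ± 15.4 CPM in CD. Slc25a29, Slc25a40 and Slc25a48 differed by between -0.56 and 0.98 on the log2 scale in the 3 comparisons.

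Carriers of coenzymes, vitamins and nucleotides numbered 8, and 0 passed. Slc25a51 imports NAD. It had 99.8, 61.5, 49.0 and 45.3 CPM in MD+CA, 104.8, 149, 96.6 and 118 CPM in MD, and 90.9, 59.2, 50.8 and 96.9 CPM in CD. MD+CA 1 overlapped MD, and the other 3 MD+CA libraries were below it, with a difference of -0.87 (SE 0.28, adjusted p = 0.0914). Slc25a32 carries folate and flavin cofactors. It had 36.9, 39.5, 28.0 and 44.4 CPM in MD+CA, 53.8, 52.6, 50.3 and 61.5 CPM in MD, and 66.7, 44.6, 53.0 and 80.1 CPM in CD. In CPM MD+CA was below both other groups without overlap. In TPM, MD+CA 4 (13.5) lay above MD 2 (10.2) and CD 2 (11.1). The difference was -0.55 in MD+CA vs MD (SE 0.21, adjusted p = 0.135) and -0.72 in MD+CA vs CD (SE 0.21, adjusted p = 0.151).

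Slc25a36, a pyrimidine nucleotide carrier, had 2.85, 6.88, 2.02 and 5.36 CPM in MD+CA, 5.40, 13.1, 5.41 and 4.62 CPM in MD, and 2.57, 2.84, 4.02 and 4.31 CPM in CD. In CPM MD lay above CD (1.04, SE 0.40, adjusted p = 0.182), with MD 2 far above the rest of its group, and without MD 2 the difference was 0.58. In TPM, MD 1 (2.402) lay below CD 3 (3.145). The peroxisomal coenzyme A carrier Slc25a17 was the 1 member that was lower in MD vs CD at an unadjusted p under 0.05. It averaged 12.7 ± 2.15 CPM in MD+CA, 11.5 ± 1.70 CPM in MD and 15.5 ± 1.503 CPM in CD (SD, n = 4 each), a MD vs CD difference of -0.42 (SE 0.18, adjusted p = 0.224). Slc25a16, Slc25a33 and Slc25a42 differed by between -0.44 and 0.22 in the 3 comparisons.

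Of 5 carriers given no transport role here, 3 were tested and 0 passed. Slc25a53 had 0.551, 0.655, 0 and 0.865 CPM in MD+CA, 1.26, 1.22, 0.977 and 1.03 CPM in MD, and 0.405, 0, 0.179 and 0.626 CPM in CD. In reads the highest value was 18, in MD 1. Slc25a53 was the 1 member that passed the filter only through 1 group, MD, so that its MD libraries lay above the others is partly set by the filter, and no fold is read from it. Slc25a34 averaged 5.21 ± 2.04 CPM in MD+CA, 9.39 ± 3.52 CPM in MD and 8.53 ± 2.19 CPM in CD (SD, n = 4 each), a MD+CA vs MD difference of -0.84 (SE 0.33, adjusted p = 0.147). Slc25a46, which sits on the outer membrane, averaged 47.6 ± 6.89 CPM in MD+CA, 43.1 ± 9.501 CPM in MD and 55.2 ± 4.38 CPM in CD.

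Reads were also split by transcript. The leading transcript was annotated as protein coding in 42 of the 45 members with reads. Protein-coding transcripts held 84.2 ± 3.44% of the family's summed TPM in MD+CA, 85.5 ± 2.28% in MD and 83.8 ± 3.97% in CD, and retained-intron transcripts held 9.47 ± 1.97% in MD+CA, 8.62 ± 1.23% in MD and 10.8 ± 2.40% in CD (SD, n = 4 each). For Ucp2, the coding transcript Ucp2-202 held 40.2 ± 7.49% in MD+CA, 53.2 ± 20.4% in MD and 39.9 ± 7.57% in CD, and Ucp2-208, which has no defined coding sequence, held 39.4 ± 8.55% in MD+CA, 39.7 ± 29.4% in MD and 41.1 ± 6.29% in CD. All groups overlapped for both.

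Of 88 transcripts that held at least 10% of their gene in some group, 7 had shares that did not overlap in MD vs CD (7.95%, against 6.33% of the transcripts of all tested genes). There were 4 in MD+CA vs MD (4.55%, against 4.05%) and 2 in MD+CA vs CD (2.27%, against 1.67%), so the members lay near the background. Transcripts of Slc25a44 and Slc25a26 are given as examples, chosen after their values were seen. A coding transcript of Slc25a44 held 47.9 ± 23.6% of the TPM of its gene in MD+CA, 83.8 ± 19.1% in MD and 33.6 ± 21.3% in CD. A coding transcript of Slc25a26 held 91.1 ± 6.28% in MD+CA, 51.8 ± 35.1% in MD and 93.3 ± 5.98% in CD. For both, MD and CD did not overlap. No test was run on shares, the depth behind a transcript of a low gene such as Slc25a26 is small, and the overlap of Slc25a26 with Lrig1 applies here too.

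Genes that work with the carriers were counted beside them. The import machinery that inserts carriers into the inner membrane (16 genes), other transporters and channels (22 tested of 23), shuttle and exchange enzymes (18) and regulators of mitochondrial genes (17) each had 0 genes past the test in all 3 comparisons. Median log2 fold changes of the import machinery were -0.29 in MD+CA vs MD and 0.21 in MD vs CD. Those of the shuttle enzymes were -0.07 in MD+CA vs MD and -0.14 in MD vs CD. Of the regulators, 6 of 17 were lower and 1 was higher in MD+CA vs MD at an unadjusted p under 0.05, against 11.6% of all genes in each direction. Log2 fold changes were above 0 in 5 of the 17, against 49.7% of all genes, and the median of the 17 was -0.18. Ppargc1b, a coactivator of mitochondrial genes and 1 of the 17, did not pass, with a difference of -1.47 (SE 0.39, adjusted p = 0.057). In the carnitine system, 1 of 8 genes passed as lower in MD+CA vs MD, against 1.64% of all genes, and 0 passed in MD vs CD and in MD+CA vs CD. At an unadjusted p under 0.05, 2 of 8 were lower and 1 was higher in MD+CA vs MD. The gene that passed was Slc22a5, the carnitine transporter of the plasma membrane. It averaged 6.74 ± 1.42 CPM in MD+CA and 22.6 ± 5.12 CPM in MD (SD, n = 4 each), and its log2 fold change was -1.74 (SE 0.32, adjusted p = 0.0171).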

How the data were processed

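Per the labels' protocols, 500 ng of liver RNA was poly(A)-selected and sequenced. Reads went through fastp and Salmon 1.10.3 with the build GRCm39, and DESeq2 is also listed, per the submitters' processing notes. Their options, the annotation and the strand were not given in the sources used here. Each library has a deposited table of 147556 transcripts with expected counts (not normalized) and TPM, per the file headers. Effective lengths, which leave out an allowance for fragment length, are also deposited.

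Expected counts were summed per gene, rounded and filtered with filterByExpr (minimum count 10). A total of 13631 genes and 39 members remained. The 12 libraries entered a single quasi-likelihood fit in edgeR 4.0.16, with TMM scaling, 3 group means and 9 residual degrees of freedom. P-values were adjusted after Benjamini-Hochberg over every gene tested. CPM values are TMM-scaled, apart from the range given for 3 reads, and are not corrected for length. Whether groups overlapped in the level of a gene, and the counts of such members, are read in CPM unless TPM is named. Levels are compared between genes only in TPM. Promoters came from RefSeq (GRCm38.p6), another build than the files', and overlaps of genes from a GRCm38 annotation, by name only. The steps were tested on simulated data, where recovery was required only for changes far larger than those of the members. A member that did not pass may therefore still differ. The values of 1 tested member are not reported here, and it stays in the counts.

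Members, roles and gene lists were chosen with earlier results of these data known. Values in every library are given for Ucp1 to Ucp3, for members past the test, and for the 6 members with the smallest p in each comparison. Alternatives were RLE and upper-quartile scaling, DESeq2 1.42.0, limma 3.58.1 voom with sample weights, no filter, a transcript length offset, coding genes alone, a model without the group not compared, a block for the replicate number, and leaving out each library. A fragment length covariate, leaving out MD 2 and MD+CA 2 together, and leaving out mitochondrially encoded genes were added after seeing the data. R 4.3.3, Python 3.11.15, pandas 2.3.3, numpy 2.4.6 and matplotlib 3.10.9 were used.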

Additional observations from a re-analysis of the deposited data

Results flagged for a closer look

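Of 52 groups of 4 libraries checked for 1 library far from the other 3, 8 were marked. The cutoff marks about 1 group in 20 only where values are normal and the groups independent. Neither was shown here, so the 8 marks are not read against that rate. A group with reads in only 1 library is always marked. MD+CA 2 was apart for Slc25a4 (23.4 CPM, against 5.19 to 6.43 in the other MD+CA libraries), for Ucp3 (1.55 CPM, against 0 to 0.259) and for summed skeletal muscle markers (896 CPM, against 1.38 to 29.8). MD+CA 4 was apart for summed adipocyte markers (27.7 CPM, against 3.93 to 6.58). MD 2 was apart for Slc25a36 (13.1 CPM, against 4.62 to 5.41 in the other MD libraries) and for Slc25a37 (48.1 CPM, against 32.2 to 34.5). CD 4 was the 1 CD library with reads of Ucp1 (0.278 CPM) and of Ucp3 (0.0695 CPM), a level of at most 4 reads, so both marks were fixed in advance.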

How the results depend on the processing

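In MD vs CD the count of members past the test was 1. It was 3 with DESeq2 (Slc25a37, Slc25a38 and Ucp2), where 4.82% of all genes were called, and 2 with limma voom (Slc25a38 and Ucp2), where 2.74% were. The main fit called 0.088% of all genes. The count was 0 with the transcript length offset, in the model of only the compared groups, with the fragment length covariate and without MD 2 and MD+CA 2. Leaving out 1 library gave between 0 and 1. In MD+CA vs MD the count was 1. It was 3 with DESeq2 (Slc25a37, Slc25a47 and Slc25a51), 5 of 45 with no filter (these 3 with Ucp1 and Ucp3), and 3 with the replicate number as a block (Slc25a10, Slc25a37 and Slc25a47). Of all genes, DESeq2 called 8.08%, the fit with no filter 3.75% and the block 4.87%, against 2.71% in the main fit. The count was 0 with the offset, with the fragment length covariate and without MD 2 and MD+CA 2. Leaving out 1 library gave between 0 and 2, and the model of only the compared groups called 1, Slc25a47 in place of Slc25a37. In MD+CA vs CD the count was 0, with 2 by DESeq2 (Slc25a32 and Ucp2), where 1.98% of all genes were called, and 0 without any 1 library. The cause of these changes was not tested. Same-numbered libraries correlated between -0.08 and 0.35 across groups, so the numbers were not taken to pair them, and the block gave 1 call in MD vs CD and 0 in MD+CA vs CD. The Ucp2 call in MD vs CD held in 9 of 24 alternatives (0.99 to 1.42, adjusted p between 8.36e-05 and 0.269), and the Slc25a37 call in MD+CA vs MD in 16 of 24 (-1.01 to -0.76, adjusted p between 0.00105 and 0.0733). Neither turned direction. Over all genes, DESeq2 called 645 in MD vs CD, 1207 in MD+CA vs MD and 327 in MD+CA vs CD, where edgeR called 12, 369 and 72. Upper-quartile scaling put the median of all genes in MD vs CD at 0.11, against 0.04. For Ucp1 and Ucp3, single MD+CA libraries carried most reads. Without TMM factors, 3 reads were worth up to 0.33 CPM. With TMM factors, 3 reads of Ucp1 in MD+CA 3 were 0.380 CPM.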
